A study of Mus musculus with 8 samples.

Results

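FGF1/CPP-C pretreatment was set against saline in mouse small intestine 4 h after 8 Gy of carbon ions, on 4 of the 8 arrays of the series, chosen by their titles. FGF1/CPP-C is a chimeric protein built on fibroblast growth factor 1, and carbon ions are a particle beam used in radiotherapy. All mice were female BALB/cA Jcl aged 8 weeks, and the jejunum is named as the segment sampled. The groups, of 2 arrays each, were intraperitoneal FGF1/CPP-C with 8 Gy, intraperitoneal FGF1 with 8 Gy, intraperitoneal saline with 8 Gy, and saline with 0 Gy. Pretreatment lasted 12 h. The FGF1 and 0 Gy arrays serve here to estimate the spread and to show where the FGF1/CPP-C arrays stand. Nothing states whether the pair of arrays in a group comes from separate mice, so p-values here measure array-to-array spread, which may be only technical. Slide 1 carried replicate 1 of all 4 groups, and slide 2 carried replicate 2.

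FGF1 binds FGF receptors on the cell surface, which activate the RAS, ERK and AKT pathways, and dual-specificity phosphatases, Sprouty proteins and ETS factors are induced as feedback. In crypt cells ionising radiation stabilises p53, which drives arrest genes such as Cdkn1a and death genes such as Bax and Bbc3. The gene programme also changes along the gut: mucous Brunner glands lie under the duodenum next to the stomach, active calcium uptake is strongest in the duodenum, and Hox genes mark position.

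A level below is the log2 of a probe's intensity over the 75th percentile of its array. A difference is FGF1/CPP-C minus saline at 8 Gy on that log2 scale, ± the standard error of the limma fit. Levels of different genes cannot be set against each other, since each has its own probe. On the 8 arrays the 75th percentile lay between 1735 and 2165 units of intensity, with 68.2% to 72.5% of spots well above background. The 2 FGF1/CPP-C arrays correlated across genes at 0.993 and the 2 saline arrays at 0.982. In bulk tissue, fewer cells of a type and less RNA per cell cannot be told apart. Absorptive enterocyte markers had median levels of 5.86 and 5.78 in FGF1/CPP-C and 5.81 and 5.10 in 8 Gy saline.

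Transcripts of neighbouring organs varied between arrays. The median level of 14 stomach antrum markers was -4.52 and -5.52 in FGF1/CPP-C, 2.09 and -2.87 in FGF1, -2.74 and 2.74 in 8 Gy saline, and 2.19 and -1.90 in 0 Gy saline (replicate 1, then 2). The median of 20 pancreatic acinar genes was -1.61 and -4.27 in FGF1/CPP-C, against -3.33 and 2.85 in 8 Gy saline. It was -3.24 and -3.79 in FGF1 and 5.29 and -3.41 in 0 Gy saline. Saline replicate 2 thus held antrum and acinar transcripts at levels that neither FGF1/CPP-C array reached, and differences whose fold moves by over 1.5 times without that array are also given without it. The saline group is then 1 array, assumed to vary like the other groups.

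Among 21649 genes tested, 2 fell after FGF1/CPP-C and none rose (limma, adjusted p under 0.05). The 2 are 0.00924% of the genes tested. Both encode secreted proteins of mucous epithelium. Tff2 is a trefoil peptide of Brunner glands and gastric mucous cells, and Gkn3 is a gastrokine.

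Tff2 had levels of -6.02 and -6.95 in FGF1/CPP-C, against 8.16 and 8.64 in 8 Gy saline. Its levels were 8.64 and 8.15 in FGF1 and 8.85 and 8.99 in 0 Gy saline, so the FGF1/CPP-C arrays stood far below the 6 others. The probe was not well above background on either FGF1/CPP-C array, and on replicate 2 it lay at the floor of the scale. It was saturated on 1 of the 2 saline arrays, on 1 of the 2 FGF1 arrays and on both 0 Gy arrays. Floored and saturated signals understate the spread between arrays, so the standard error and p of Tff2 may be too small. Tff2 was at least 29060-fold lower (difference -14.88 ± 0.35, limma adjusted p = 0.000216). Where a probe was not well above background in 1 group, a fold is a lower limit for the processed signals alone. For the brighter group the limit uses the mean. For each dim array it uses the probe's own signal or the lowest signal well above background, whichever is higher. Another background correction can give less: with normexp the difference of Tff2 was -12.49, short of its limit.

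Gkn3 had levels of -1.66 and -1.82 in FGF1/CPP-C, against 7.18 and 8.12 in 8 Gy saline. In FGF1 it had 8.17 and 7.20, and in 0 Gy saline 8.37 and 8.23. Again the FGF1/CPP-C arrays lay far below the 6 others. Gkn3 was 672-fold lower as measured (difference -9.39 ± 0.40, limma adjusted p = 0.00419). Its probe lies on chromosome 6 from 87333375 to 87333434 on the minus strand of mm9. Its spot was saturated on 1 of the 2 saline arrays, which holds down the saline mean and so the measured fold. It was also saturated on 1 FGF1 array and on 1 array of 0 Gy saline. Its standard error and p may thus be too small as well.

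The same 2 genes differed from FGF1, 0.00923% of the genes tested in that contrast. Tff2 was at least 29079-fold lower than in FGF1 (limma adjusted p = 0.000217). The measured difference from FGF1 was -9.43 ± 0.40 for Gkn3 (limma adjusted p = 0.00412). Both spots were saturated on 1 of the 2 FGF1 arrays. Neither call against saline held in a fit to the 4 arrays of the 2 groups alone, where limma gave adjusted p = 0.0675 for Tff2 and 0.0967 for Gkn3. Without the 3 arrays richest in antrum transcripts it gave 0.332 and 0.154, with differences of -14.64 and -8.92. That fit has 1 array in each group but FGF1/CPP-C, whose pair alone gives the 1 residual degree of freedom.

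**Figure D1:**
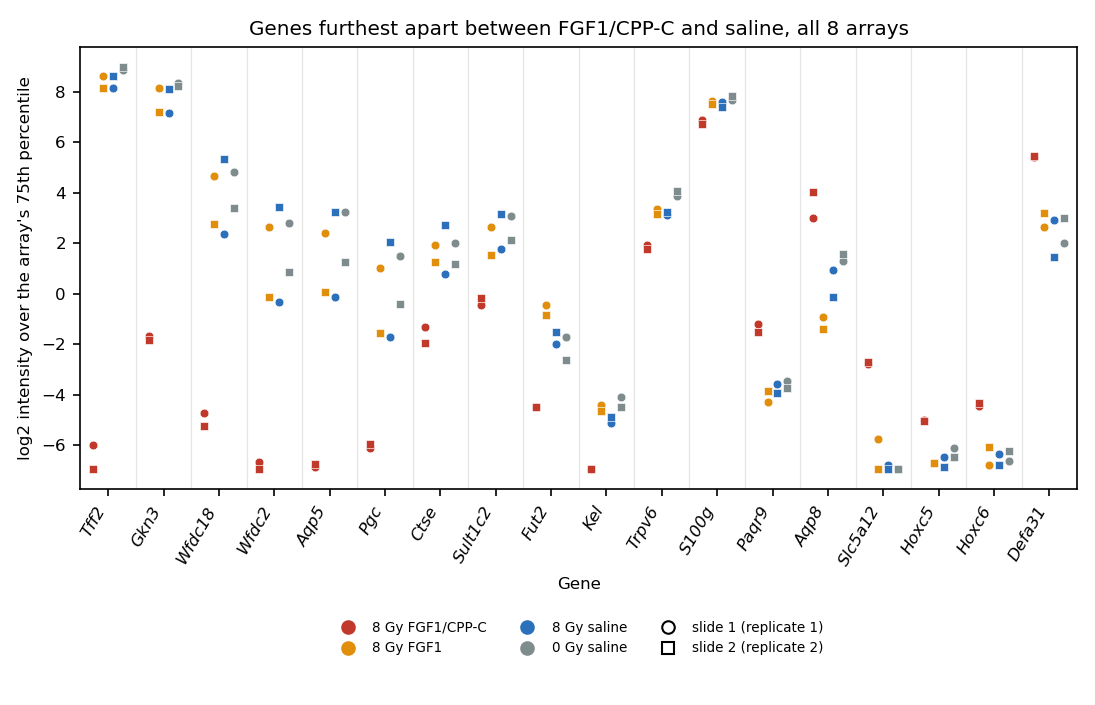
Level (log2 intensity over the array's 75th percentile) of 18 genes on each of the 8 arrays, with groups in colour, circles for slide 1 and squares for slide 2. For Tff2 the FGF1/CPP-C points lie at -6.02 and -6.95 and the other 6 lie between 8.15 and 8.99, while for Paqr9 and Slc5a12 the FGF1/CPP-C points lie above the other 6.

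Other mucous and gastric genes were lower in FGF1/CPP-C without passing. Of 9 measured Brunner gland markers 1 had a positive difference, where 56.6% of all genes tested had one. On 6 of the 9 both FGF1/CPP-C arrays lay below the 6 others, as did 2144 of the 21444 genes with a value on all 8 arrays. The median difference was -1.69 (-0.64 on slide 1 and -2.73 on slide 2), against 0.04 over all genes tested. Without saline replicate 2 it was -0.73. Tff2 was the Brunner gland marker that passed.

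Wfdc18, a secreted protein of the WAP family, had levels of -4.75 and -5.23 in FGF1/CPP-C, against 2.35 and 5.35 in 8 Gy saline (difference -8.84 ± 1.11, limma adjusted p = 0.153). Aqp5, a water channel of secretory glands, had -6.86 and -6.74 in FGF1/CPP-C, against -0.14 and 3.24 in saline, at least 325-fold lower (limma adjusted p = 0.19). Wfdc2, another WAP protein, had -6.69 and -6.95 in FGF1/CPP-C, against -0.31 and 3.42 in saline, at least 319-fold lower (limma adjusted p = 0.204). In all 3 the FGF1/CPP-C arrays were close together and below the other arrays, while the 2 saline arrays lay several log2 units apart. Without saline replicate 2 the difference was -7.34 for Wfdc18, and the limits were 101-fold for Aqp5 and 87.6-fold for Wfdc2.

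Pgc, the precursor of a gastric protease, had -6.13 and -5.98 in FGF1/CPP-C, against -1.70 and 2.06 in saline (difference -6.23 ± 1.43, limma adjusted p = 0.295). Ctse, the protease cathepsin E of gastric epithelium, had -1.32 and -1.96 in FGF1/CPP-C, against 0.79 and 2.71 in saline (difference -3.39 ± 0.67, limma adjusted p = 0.241). Sult1c2, a sulfotransferase, had -0.46 and -0.19, against 1.77 and 3.14 in saline (difference -2.78 ± 0.59, limma adjusted p = 0.282). Here too no FGF1/CPP-C array overlapped another array. Muc5b, a gel-forming mucin, had a difference of -3.83 ± 1.49, and Agr2, a disulphide isomerase needed for mucin folding, -2.01 ± 0.84. Without saline replicate 2 the differences were -4.35 for Pgc, -2.43 for Ctse, -2.10 for Sult1c2, -2.07 for Muc5b and -0.89 for Agr2.

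The summed intensity of the 14 antrum markers, in multiples of the 75th percentile, was 8.63 and 7.65 in FGF1/CPP-C, against 158 and 828 in 8 Gy saline. It was 642 and 163 in FGF1 and 707 and 318 in 0 Gy saline. The 6 arrays outside FGF1/CPP-C thus all held these transcripts at higher sums. That of the 9 Brunner gland markers was 239 and 200 in FGF1/CPP-C, against 554 and 738 in 8 Gy saline. Muc1, Tff1 and Vsig1 of the antrum list and Tff2 and Ces1h of the Brunner gland list were not well above background in FGF1/CPP-C. The part of antral and Brunner gland tissue in the differences above was not tested.

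Genes on neither list were lower too, some with little spread between arrays. Kel, a metallopeptidase known as a blood group antigen, was at the floor of the scale in FGF1/CPP-C (-6.95 and -6.95), against -5.12 and -4.88 in 8 Gy saline. It was at least 3.71-fold lower (limma adjusted p = 0.0971). Ces1b, a carboxylesterase, had -5.54 and -5.52 in FGF1/CPP-C, against -4.08 and -3.96 in saline (difference -1.51 ± 0.12, limma adjusted p = 0.0886). For both genes the FGF1/CPP-C arrays lay below the 6 others. Slc13a3, a dicarboxylate transporter, was at least 3.19-fold lower (limma adjusted p = 0.101). Fut2, a fucosyltransferase that decorates mucins, had -4.49 and -4.49 in FGF1/CPP-C, -0.45 and -0.84 in FGF1 and -1.99 and -1.50 in saline. It was 6.69-fold lower than in saline (limma adjusted p = 0.146), and the FGF1 arrays lay above the saline arrays. Under quantile normalisation Kel and Slc13a3 passed (limma adjusted p = 0.0355 for both), and with probes averaged per gene Ces1b did (0.0385). With normexp background correction none of these 3 passed, and their differences were -0.84 for Kel, -0.50 for Slc13a3 and -0.74 for Ces1b. The limits given for Kel and Slc13a3 rest on the processed signals and are larger than these differences.

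Of 14 duodenal iron and calcium genes 5 had a positive difference (56.6% of all genes), none passed and the median was -0.09. Of these, 3 calcium genes chosen after their values were seen had negative differences. Trpv6, the calcium entry channel of the duodenal brush border, had 1.95 and 1.78 in FGF1/CPP-C, against 3.11 and 3.22 in 8 Gy saline (difference -1.30 ± 0.13, limma adjusted p = 0.106). S100g, the cytosolic calcium carrier calbindin, had 6.88 and 6.74, against 7.60 and 7.41 in saline (difference -0.70 ± 0.12, limma adjusted p = 0.206). Atp2b1, which exports calcium at the basolateral membrane, had 3.05 and 2.81, against 3.77 and 3.40 in saline (difference -0.66 ± 0.17, limma adjusted p = 0.323). Entry, carrier and exporter genes thus all lay below the 6 other arrays, and none passed. Cybrd1, the duodenal iron reductase, had a difference of -0.80 ± 0.42, and of -0.37 without saline replicate 2.

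Of 34 ion and water transport genes 16 had a positive difference (56.6% of all genes), none passed and the median was -0.01. Some genes of chloride and bicarbonate transport, picked after their values were seen, lay lower. Slc26a3, the exchanger of both in the apical membrane, had 1.73 and 1.60 in FGF1/CPP-C, against 3.15 and 3.46 in saline (difference -1.64 ± 0.17, limma adjusted p = 0.106). Slc4a4, a sodium bicarbonate cotransporter, had 0.85 and 0.83, against 1.73 and 1.66 in saline (difference -0.85 ± 0.13, limma adjusted p = 0.179). Car2, a carbonic anhydrase, had 2.16 and 2.00 in FGF1/CPP-C, against 4.59 on saline replicate 2. Its spots on saline replicate 1 and on 0 Gy replicate 1 had an outlier mark and were dropped from the fit (difference -2.52 ± 0.23, limma adjusted p = 0.159). All 3 were lower in FGF1/CPP-C than on every other array with a value, and none passed.

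Agreement between the slide pairs can be read from the scatter of the 2 pairs. Of 21493 genes with a value on the 4 arrays, 53 were at least 2-fold higher in both pairs (0.247%) and 143 at least 2-fold lower (0.665%). The groups did not overlap for 25.2% of genes on the higher side and 19.2% on the lower side. At an unadjusted p under 0.05 there were 1598 genes higher and 982 lower, and this balance turned with the values used: 618 higher and 1029 lower in the authors' deposited processed values, 670 and 728 without saline replicate 2, and 567 and 915 without the 3 antrum-rich arrays.

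**Figure D2:**
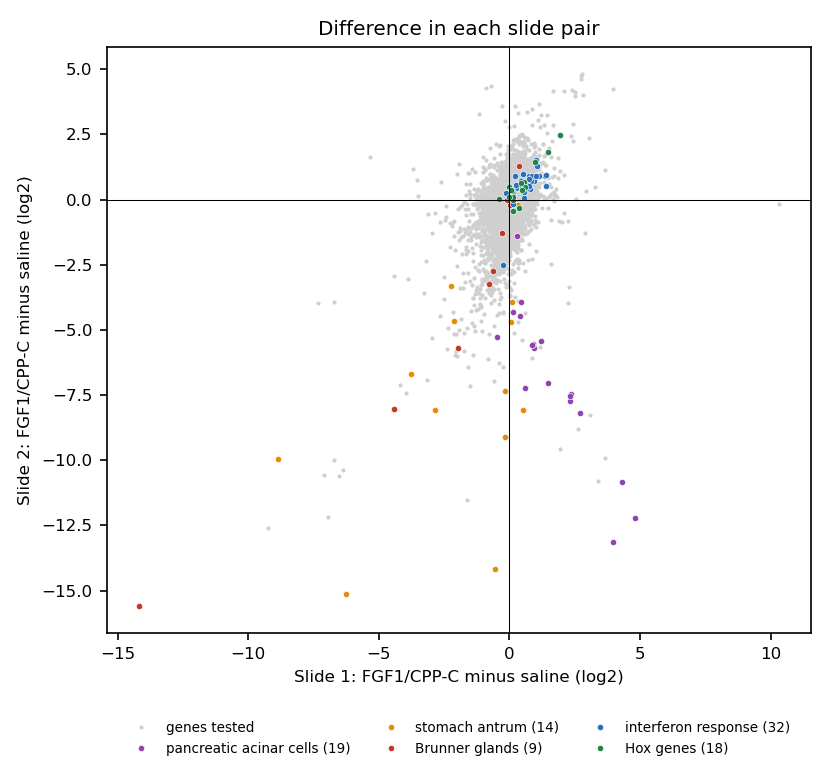
Difference FGF1/CPP-C minus saline (log2) in the slide 1 pair (x) and the slide 2 pair (y), 1 point per gene, with 5 gene lists in colour. Tff2 lies at -14.18 and -15.59, acinar genes are mostly positive on slide 1 and strongly negative on slide 2, and most interferon genes lie above 0 on both axes.

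Among genes higher after FGF1/CPP-C, Slc5a12 was near the floor on most of the other arrays, while Paqr9 was well above background on all 8 arrays. Paqr9, a membrane protein of the progestin and adipoQ receptor family, had -1.21 and -1.51 in FGF1/CPP-C, against -3.59 and -3.94 in 8 Gy saline (difference 2.40 ± 0.21, limma adjusted p = 0.0971). It had -4.30 and -3.88 in FGF1 and -3.45 and -3.74 in 0 Gy saline. Slc5a12, a sodium-coupled lactate transporter, had -2.79 and -2.70 in FGF1/CPP-C, against -6.78 and -6.95 in saline, and was at least 16.7-fold higher (limma adjusted p = 0.0971). Neither gene overlapped another array, and neither is called here. In no group but FGF1/CPP-C did both arrays measure Slc5a12 above background, so it entered the test through the group where it is high. Slc5a12 passed under quantile normalisation (limma adjusted p = 0.0393), with normexp background correction (0.0344) and with probes averaged per gene (0.0051). Paqr9 passed under the last pair of settings (limma adjusted p = 0.0391 and 0.027). With normexp the difference of Slc5a12 was 2.06.

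Aqp8, a water channel, had 3.01 and 4.04 in FGF1/CPP-C, against 0.93 and -0.12 in 8 Gy saline (difference 3.12 ± 0.46, limma adjusted p = 0.173). In FGF1 it had -0.92 and -1.41, and the difference from FGF1 was 4.68 ± 0.46 (limma adjusted p = 0.0887). It was above the 6 other arrays. Defa31, an alpha-defensin of Paneth cells, had 5.42 and 5.45, against 2.92 and 1.46 in saline (difference 3.24 ± 0.54, limma adjusted p = 0.201). Its probe was named through an older symbol and alpha-defensin genes are near-identical, so which member it read is uncertain. Its difference was 2.51 without saline replicate 2. Igf2bp3, an RNA-binding protein, had -3.52 and -3.47, against -5.12 and -5.09 in saline (difference 1.61 ± 0.41, limma adjusted p = 0.318).

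Some Hox genes of the C cluster had positive differences. Hoxc5 had -5.01 and -5.05 in FGF1/CPP-C, against -6.50 and -6.87 in saline, where it was not well above background, at least 3.12-fold higher (limma adjusted p = 0.106). Hoxc6 had -4.44 and -4.34, against -6.37 and -6.79 in saline, at least 4.56-fold higher (limma adjusted p = 0.157). Hoxc4 had -2.72 and -2.39, against -3.71 and -3.83 in saline (difference 1.21 ± 0.33, limma adjusted p = 0.335). All 3 stood above the 6 other arrays, and none passed. Hoxc5 and Hoxc6 were well above background in the FGF1/CPP-C group alone and so entered the test through the group where they are high, which partly fixes their order. Hoxc5 passed under quantile normalisation (limma adjusted p = 0.0355). With normexp the differences of Hoxc5 and Hoxc6 were 0.52 and 0.93, and neither passed. In the B cluster, Hoxb6 had a difference of 0.54 ± 0.09 and Hoxb5os, a transcript opposite Hoxb5, of 1.95 ± 0.24. Of 18 measured Hox genes 16 had a positive difference (56.6% of all genes) and none passed. 7 had an unadjusted p under 0.05 on the higher side, as did 7.38% of all genes tested, and the median was 0.23 (0.26 on slide 1, 0.36 on slide 2). Hoxc5 and Hoxc6 count in these numbers, which the filter on dim probes thus partly shapes. With no such filter 23 of 29 were positive and the median was 0.12. Then 6 had such a p, as did 1869 of 30830 genes. The median was 0.16 with normexp and 0.14 in the authors' deposited processed values.

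Peptide hormone genes went both ways. Of 19 measured enteroendocrine genes 7 had a positive difference (56.6% of all genes), none passed and the median was -0.08. An unadjusted p under 0.05 was found for 3 on the higher side (7.38% of all genes) and 6 on the lower (4.54%). Nts, neurotensin, had -1.66 and -1.17 in FGF1/CPP-C, against -2.89 and -4.41 in saline (difference 2.23 ± 0.56, limma adjusted p = 0.318). Pyy, peptide YY, had -0.82 and -1.20, against 0.87 and 0.06 in saline (difference -1.48 ± 0.30, limma adjusted p = 0.255). Chgb, a granule protein of endocrine cells, had a difference of -0.58 ± 0.09 and Gcg, the proglucagon gene, of 0.92 ± 0.36. None of the 4 passed. Nts was at 1.47 and Gcg at 0.42 without saline replicate 2.

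Interferon-response genes, induced when interferon binds its receptors, were mostly higher. Of 32 measured, 30 had a positive difference, 26 had an unadjusted p under 0.05 on the higher side and 0 on the lower side, and none passed over all genes. Of all genes tested 56.6% had a positive difference, 7.38% had such a p on the higher side and 4.54% on the lower side. The median difference was 0.61, with 0.65 on slide 1 and 0.64 on slide 2, against 0.04 for all genes tested. On 16 of the 32 both FGF1/CPP-C arrays lay above the 6 others, as did 11.1% of all genes. The negative members were Iigp1 and Isg20, a nuclease (-1.36 ± 0.80, and -0.35 without saline replicate 2).

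Promoters of 3 members are shown because they carry the interferon-stimulated response element in different numbers. Its core was searched as GAAA, any 2 bases and GAAA, on both strands, with overlapping matches counted each. The 300 bases around each start come from RefSeq (GRCm38.p6), and matches are in capitals. Isg15 (chr4:156200769-156201068, minus strand) has 3 overlapping matches, Ifit3 (chr19:34583279-34583578, plus strand) has 2 and Igtp (chr11:58199306-58199605, plus strand) has 1.
Isg15: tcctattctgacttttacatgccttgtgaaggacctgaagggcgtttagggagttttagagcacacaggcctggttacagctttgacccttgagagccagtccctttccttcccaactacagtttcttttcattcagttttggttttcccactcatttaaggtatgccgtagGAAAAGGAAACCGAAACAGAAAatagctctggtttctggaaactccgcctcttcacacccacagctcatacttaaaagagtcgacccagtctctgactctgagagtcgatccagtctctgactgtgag
Ifit3: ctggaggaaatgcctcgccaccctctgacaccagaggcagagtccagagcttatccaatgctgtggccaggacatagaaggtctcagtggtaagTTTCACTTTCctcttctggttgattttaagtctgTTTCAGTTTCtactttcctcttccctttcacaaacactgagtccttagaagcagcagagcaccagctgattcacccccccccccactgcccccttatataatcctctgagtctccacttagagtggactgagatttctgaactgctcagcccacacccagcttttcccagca
Igtp: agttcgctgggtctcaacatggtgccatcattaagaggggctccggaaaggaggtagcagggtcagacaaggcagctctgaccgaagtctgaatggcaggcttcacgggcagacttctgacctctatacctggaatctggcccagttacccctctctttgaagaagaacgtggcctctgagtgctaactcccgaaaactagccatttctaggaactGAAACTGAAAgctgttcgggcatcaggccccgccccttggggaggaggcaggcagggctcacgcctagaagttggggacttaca
Of 24 list genes with a promoter in the RefSeq table, 15 hold the core (62.5%), against 3.83% of the 13317 tested genes with one. A match is a description of the letters and not a binding site.

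Oasl2, an antiviral protein related to oligoadenylate synthetases, had 2.42 and 1.81 in FGF1/CPP-C, 1.55 and 1.72 in FGF1 and 1.05 and 0.92 in 8 Gy saline (difference from saline 1.13 ± 0.20, limma adjusted p = 0.226). Usp18, the protease that removes ISG15 from proteins, had 0.79 and 0.18 in FGF1/CPP-C, -0.06 and 0.03 in FGF1 and -0.61 and -0.76 in saline (difference 1.17 ± 0.25, limma adjusted p = 0.282). Isg15, the ubiquitin-like protein itself, had 4.78 and 4.23 in FGF1/CPP-C, 3.98 and 4.19 in FGF1 and 3.66 and 3.34 in saline (difference 1.00 ± 0.22, limma adjusted p = 0.288). Among these 6 arrays the FGF1/CPP-C arrays were highest in all 3 genes, the FGF1 arrays came next, and the saline arrays were lowest.

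Ifit3, an antiviral RNA-binding family member, had -0.36 and -0.61 in FGF1/CPP-C, against -1.24 and -1.51 in saline (difference 0.89 ± 0.18, limma adjusted p = 0.269). Igtp, an immunity-related GTPase, had 2.77 and 2.32, against 1.72 and 1.04 in saline (difference 1.17 ± 0.27, limma adjusted p = 0.292). The nucleic acid sensor Zbp1 had a difference of 1.26 ± 0.38, or 0.70 without saline replicate 2, and the regulator Irf7 of 0.77 ± 0.18. The groups did not overlap in any of the 4, as for 25.2% of all genes on the higher side. The median of the list was 0.30 for FGF1/CPP-C minus FGF1, and 0.33 for FGF1 minus saline, a contrast that shares the saline arrays.

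**Figure D3:**
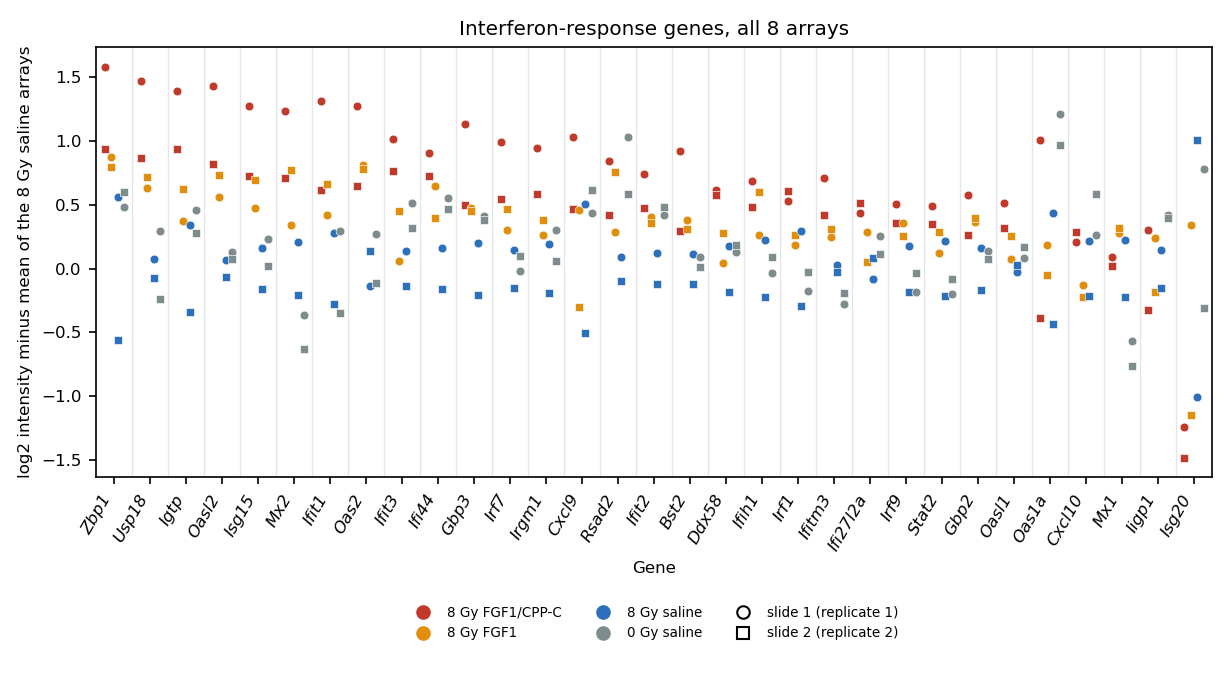
Interferon-response genes, all measured but 1, level on each of the 8 arrays minus the mean of the 2 saline arrays at 8 Gy (log2), with groups in colour and genes ordered by difference. Both FGF1/CPP-C points lie above both saline points for Usp18, Igtp, Oasl2 and Isg15, and below them for Isg20 at the right.

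Antigen presentation genes mostly had positive differences, and none passed. All 18 measured MHC class I genes had a positive difference, where 56.6% of all genes tested had one. Of them 10 had an unadjusted p under 0.05 on the higher side, as did 7.38% of all genes, with a median of 0.43 (0.33 on slide 1, 0.53 on slide 2). Nlrc5, the transactivator of MHC class I, had -1.99 and -1.79 in FGF1/CPP-C, against -2.62 and -3.11 in saline (difference 0.97 ± 0.20, limma adjusted p = 0.269). Tap1, a subunit of the peptide transporter, had 0.57 ± 0.14, and H2-K1, a class I heavy chain, 0.53 ± 0.17. The groups did not overlap for these 3, as for 25.2% of all genes on the higher side. All 11 measured MHC class II genes were positive and 5 had an unadjusted p under 0.05, with a median of 0.54 (0.18 and 0.93). H2-Ab1, a class II chain, had 5.18 and 5.09 in FGF1/CPP-C, 4.53 and 4.37 in FGF1, 4.58 and 4.02 in 8 Gy saline and 4.99 and 4.95 in 0 Gy saline (difference from 8 Gy saline 0.83 ± 0.19, limma adjusted p = 0.292). Its FGF1/CPP-C levels were thus nearer to 0 Gy than to 8 Gy saline, and so were those of Cd74, the invariant chain (difference from 8 Gy saline 0.90 ± 0.22).

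Lymphocyte genes, those of T cells and intraepithelial lymphocytes, had mostly positive differences as well. Of 19 measured, 17 were positive (56.6% of all genes) and 12 had an unadjusted p under 0.05 on the higher side (7.38% of all genes), with a median of 0.57 (0.36 on slide 1, 0.94 on slide 2). Their summed intensity was 53.3 and 51.1 multiples of the 75th percentile in FGF1/CPP-C, 39.5 and 39.9 in FGF1, 41.3 and 30.7 in 8 Gy saline and 42.4 and 48.2 in 0 Gy saline. Zap70, a T cell receptor kinase, had 0.80 ± 0.20, Cd3d, a receptor chain, 0.86 ± 0.22 and Gzmb, the protease granzyme B, 0.90 ± 0.30. None passed, and the part of these cells in the interferon and MHC values was not tested. Of 16 B cell and plasma cell genes 12 were positive, with a median of 0.76 (-0.03 on slide 1, 1.43 on slide 2). An unadjusted p under 0.05 was found for 1 on the higher side (7.38% of all genes) and 2 on the lower (4.54%). Among B cell genes, Ms4a1, which encodes CD20, had -4.89 and -0.65 in FGF1/CPP-C, against -6.56 and -4.79 in saline (difference 2.91 ± 1.58, or 3.79 without saline replicate 2). For this gene replicate 2 of FGF1/CPP-C was far above the other arrays.

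These counts depend on the arrays used. Without saline replicate 2 the interferon median was 0.51 with 15 of 32 at an unadjusted p under 0.05. Without FGF1/CPP-C replicate 1 it was 0.49 with 13. In the fit without the 3 antrum-rich arrays, where the FGF1/CPP-C pair alone gives the residual spread, the median was 0.51 and 4 had such a p. Without saline replicate 2 the median was 0.26 for MHC class I, 0.21 for MHC class II and 0.33 for the T cell list.

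Enzymes of the brush border, the absorptive face of the enterocyte, mostly had positive differences. Of 19 measured, 18 were positive (56.6% of all genes) and 8 had an unadjusted p under 0.05 on the higher side (7.38%). For 13 both FGF1/CPP-C arrays lay above the 6 others (11.1% of all genes). The median was 0.59. It was 0.22 on slide 1 and 0.87 on slide 2, and 0.23 without saline replicate 2. Xpnpep2, a membrane aminopeptidase, had 2.91 and 2.96 in FGF1/CPP-C, against 2.15 and 2.09 in saline (difference 0.81 ± 0.13, limma adjusted p = 0.192). Lct, lactase, had 7.13 and 7.11, against 6.45 and 5.90 in saline (difference 0.94 ± 0.25, limma adjusted p = 0.333). Ace, angiotensin-converting enzyme, had a difference of 0.85 ± 0.19 and Anpep, aminopeptidase N, of 0.94 ± 0.36, or 0.42 without saline replicate 2. All 4 stood above the FGF1 and 0 Gy arrays too, and none passed. Absorptive enterocyte markers had 24 of 25 positive and a median of 0.35 (0.19 on slide 1, 0.58 on slide 2), and of 0.13 without saline replicate 2.

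Genes of Paneth cells, which secrete antimicrobial peptides at the crypt base, mostly had positive differences. Of 18 measured with the Reg lectins, 15 were positive (56.6% of all genes), with a median of 0.41. An unadjusted p under 0.05 was found for 7 on the higher side (7.38% of all genes) and 1 on the lower (4.54%). Ang4, an antimicrobial ribonuclease, had 0.91 and 0.69 in FGF1/CPP-C, against 0.16 and -0.26 in saline (difference 0.84 ± 0.21, limma adjusted p = 0.318). Pla2g2a, a secreted phospholipase, had 0.86 ± 0.23, Lyz1, lysozyme, 0.70 ± 0.25 and Mmp7, which activates defensins, 0.60 ± 0.17. Reg4, a lectin, lay on the other side (1.51 and 1.51 in FGF1/CPP-C, against 2.29 and 2.05 in saline, difference -0.66 ± 0.13). None of these passed, and without saline replicate 2 the median was 0.26.

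**Figure D4:**
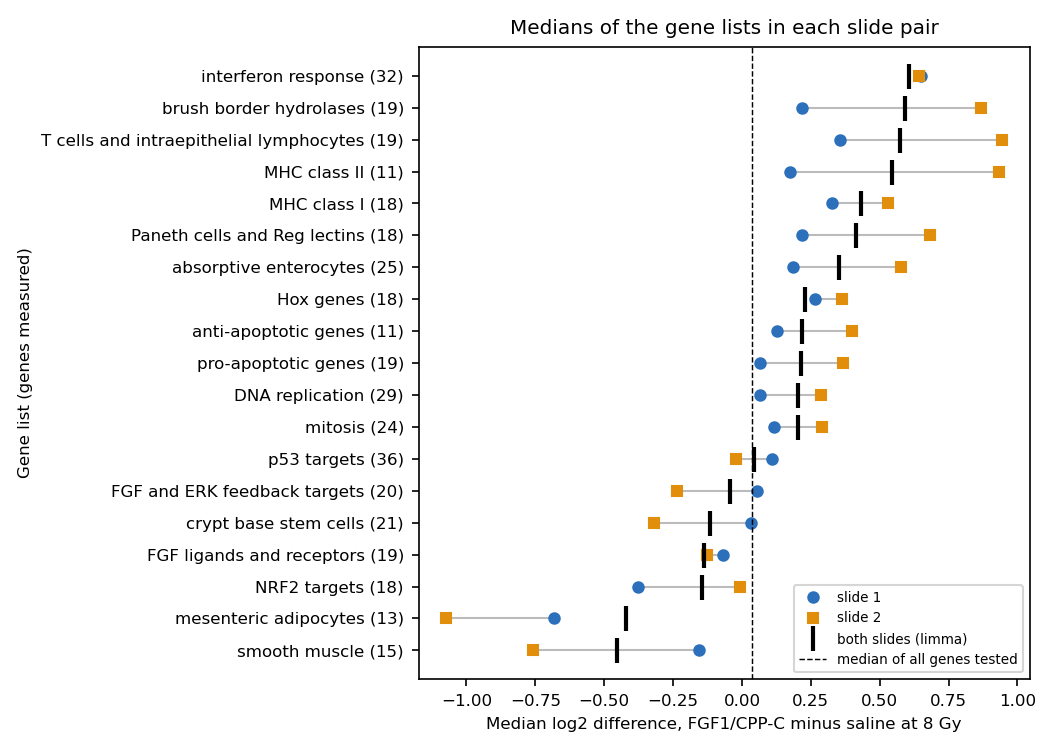
Median difference FGF1/CPP-C minus saline at 8 Gy (log2) of 19 gene lists, with the number of measured genes in brackets: circles for slide 1, squares for slide 2, bars for the limma fit and a dashed line for all genes tested. The interferon list lies at 0.65 and 0.64 on the 2 slides, and smooth muscle at -0.16 and -0.76.

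Of 12 neutrophil and acute-phase genes 6 had a positive difference (56.6% of all genes), none passed and the median was 0.08. A few of them, picked after their values were seen, stood apart from saline in FGF1/CPP-C and in FGF1. S100a8, a calprotectin subunit abundant in neutrophils, had -3.67 and -4.31 in FGF1/CPP-C, -4.06 and -3.85 in FGF1 and -6.10 and -6.55 in 8 Gy saline (difference from saline 2.33 ± 0.26, limma adjusted p = 0.129). S100a9, its partner subunit, had -1.33 and -1.78 in FGF1/CPP-C, -1.88 and -1.47 in FGF1 and -3.76 and -4.68 in saline (difference 2.66 ± 0.34, limma adjusted p = 0.153). Saa3, an acute-phase protein, had 0.68 and -0.58 in FGF1/CPP-C, -0.55 and -0.59 in FGF1, -2.39 and -2.94 in 8 Gy saline and -5.39 and -6.04 in 0 Gy saline. In all 3 the FGF1/CPP-C and FGF1 arrays overlapped and both stood above 8 Gy saline. The difference from FGF1 was -0.04 ± 0.26, 0.12 ± 0.34 and 0.62 ± 0.45.

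Several adipocyte genes were lower in both protein-treated groups than in 8 Gy saline. For Adipoq, Car3, Retn and Cfd the 0 Gy arrays also lay below both 8 Gy saline arrays. In 0 Gy saline Adipoq had -4.69 and -6.61, and Car3 had -1.64 and -2.34. Adipoq, the hormone adiponectin, was at the floor of -6.95 on the FGF1/CPP-C and FGF1 arrays, against -3.07 and -3.89 in saline, at least 10.6-fold lower in FGF1/CPP-C (limma adjusted p = 0.207). Car3, a carbonic anhydrase abundant in fat, had -6.61 and -4.77 in FGF1/CPP-C, -5.25 and -4.05 in FGF1 and 0.11 and -0.83 in saline (difference from saline -5.33 ± 0.72, limma adjusted p = 0.159). Retn, the hormone resistin, was at least 12.8-fold lower and Cfd, the protease adipsin, had -5.64 ± 1.07. Of 13 adipocyte genes 2 were positive (56.6% of all genes), with a median of -0.42. Adipoq, Plin1 and Retn were not well above background in FGF1/CPP-C, and the summed intensity of the list was 36.1 and 25.1 multiples of the 75th percentile in FGF1/CPP-C, against 32.5 and 34.9 in saline. The part of mesenteric fat in these values was not tested.

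No gene of the p53 response, the main early response to ionising radiation, passed between FGF1/CPP-C and saline. Gdf15, a stress cytokine, had 2.34 and 2.60 in FGF1/CPP-C, 1.68 and 2.42 in 8 Gy saline and -3.41 and -3.66 in 0 Gy saline (difference from 8 Gy saline 0.42 ± 0.30, 95% interval -0.30 to 1.14). Cdkn1a, the cell cycle inhibitor p21, had 3.94 and 3.71 in FGF1/CPP-C, against 3.68 and 3.67 in 8 Gy saline (difference 0.15 ± 0.12, 95% interval -0.15 to 0.44). Bax, which opens the mitochondrial membrane in apoptosis, had 2.71 and 2.92, against 2.73 and 2.92 in saline (difference -0.01 ± 0.12, 95% interval -0.29 to 0.28). The groups overlapped for Gdf15 and Bax, and for Cdkn1a they lay close. Mdm2, the p53 ubiquitin ligase, had a difference of 0.15 (95% interval -0.19 to 0.48). Bbc3, the death gene PUMA, had 0.21 (-0.37 to 0.79), and Pmaip1, the death gene NOXA, 0.33 (-0.31 to 0.98). Phlda3, a brake on AKT, had -0.23 (-0.76 to 0.29) and Ccng1, cyclin G1, -0.37 (-0.87 to 0.13). Of 36 measured p53 targets 21 were positive (56.6% of all genes), none passed and the median was 0.04. On the higher side 3 had an unadjusted p under 0.05, a share near the 7.38% of all genes.

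Genes for and against cell death had medians of like size. Of pro-apoptotic genes 15 of 19 were positive, with a median of 0.21, and of anti-apoptotic genes 10 of 11, with a median of 0.22. Over all genes tested 56.6% were positive. An unadjusted p under 0.05 on the higher side was found for 2 pro-apoptotic and 4 anti-apoptotic genes (7.38% of all genes). Without the 3 antrum-rich arrays the medians were 0.05 for pro-apoptotic and 0.12 for anti-apoptotic genes. Bcl2l11, the BH3 protein BIM, had 0.51 ± 0.17. Birc2, an inhibitor of apoptosis, had 0.38 ± 0.09 and Bcl2l1, which encodes BCL-XL, 0.21 ± 0.12. None of the 3 passed.

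Of 24 mitosis genes 22 had a positive difference (56.6% of all genes), with a median of 0.20. An unadjusted p under 0.05 on the higher side was found for 2 of them, a share near the 7.38% of all genes, and none passed. Nek2, a centrosome kinase, had -3.13 and -3.16 in FGF1/CPP-C, -3.52 and -3.68 in FGF1, -3.53 and -3.48 in 8 Gy saline and -2.18 and -2.27 in 0 Gy saline (difference from 8 Gy saline 0.36 ± 0.10, limma adjusted p = 0.339). Its FGF1/CPP-C arrays thus lay between 8 Gy saline and 0 Gy saline. Mki67, the proliferation marker, had 0.24 ± 0.12 and Ccnb1, cyclin B1, 0.20 ± 0.13. DNA replication genes gave 26 of 29 positive and a median of 0.20, with 5 at such a p.

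Crypt base stem cell genes lay on both sides, with 9 of 21 positive (56.6% of all genes) and a median of -0.12. Lgr5, the receptor for R-spondins on stem cells, had -2.67 and -2.71 in FGF1/CPP-C, -3.58 and -3.01 in FGF1, -3.56 and -3.66 in 8 Gy saline and -3.24 and -3.07 in 0 Gy saline (difference from 8 Gy saline 0.92 ± 0.19, limma adjusted p = 0.271). It was above the 6 other arrays and did not pass. Olfm4, a secreted stem cell marker, had -0.92 and -0.89, against -0.54 and 0.52 in saline (difference -0.89 ± 0.40). Ascl2, a stem cell transcription factor, had -0.72 and -0.46, against -0.43 and 1.29 in saline (difference -1.02 ± 0.61). Saline replicate 2 was the higher saline array for both, and without it the differences were -0.36 and -0.16.

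Readouts of FGF receptor signalling were not shown to differ. Dusp6, the phosphatase that ends ERK activity, had 3.44 and 2.96 in FGF1/CPP-C, against 3.56 and 2.89 in saline (difference -0.02 ± 0.29, 95% interval -0.74 to 0.69). Spry2, a feedback inhibitor, had -4.26 and -4.63, against -4.29 and -4.48 in saline (difference -0.06, 95% interval -0.44 to 0.32). The groups overlapped for both. The ETS factors Etv4 and Etv5 had 0.08 (95% interval -0.19 to 0.35) and -0.49 (-1.24 to 0.26), and without saline replicate 2 Etv5 was at -0.03. The Etv5 probe has mm9 coordinates on chromosome 10, another chromosome than that gene, so whether it read Etv5 is uncertain. The immediate early genes Egr1 and Fos had 0.20 (-1.04 to 1.44) and -0.12 (-0.96 to 0.71), and without saline replicate 2 Egr1 was at 0.96. Dusp4, another phosphatase of ERK, had -3.81 and -3.91, against -3.51 and -3.30 in saline (difference -0.46 ± 0.11, limma adjusted p = 0.318). Phlda1, also induced by growth factors, had -0.90 ± 0.31. Of 20 feedback targets 9 were positive (56.6% of all genes), with a median of -0.04. An unadjusted p under 0.05 was found for 2, both on the lower side, where 4.54% of all genes had one. The intervals are wide enough to hold moderate changes either way. The time point measured was 4 h after irradiation, which itself followed a pretreatment of 12 h.

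Of the FGF ligands and receptors 6 of 19 were positive (56.6% of all genes), with a median of -0.14. The receptors Fgfr1, Fgfr2, Fgfr3 and Fgfr4 had differences of -0.25, -0.05, 0.00 and 0.08. The mouse Fgf1 transcript, which an injected protein does not add to, had 0.15 and 0.16 in FGF1/CPP-C, against -0.12 and 0.13 in saline (difference 0.15 ± 0.12, 95% interval -0.16 to 0.45). Fgf10, a mesenchymal ligand, was not well above background in FGF1/CPP-C and had -5.35 and -3.18 in saline, at least 4.42-fold lower (limma adjusted p = 0.379). The saline arrays lay far apart for it, and without saline replicate 2 the limit was 2.09-fold.

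**Figure D5:**
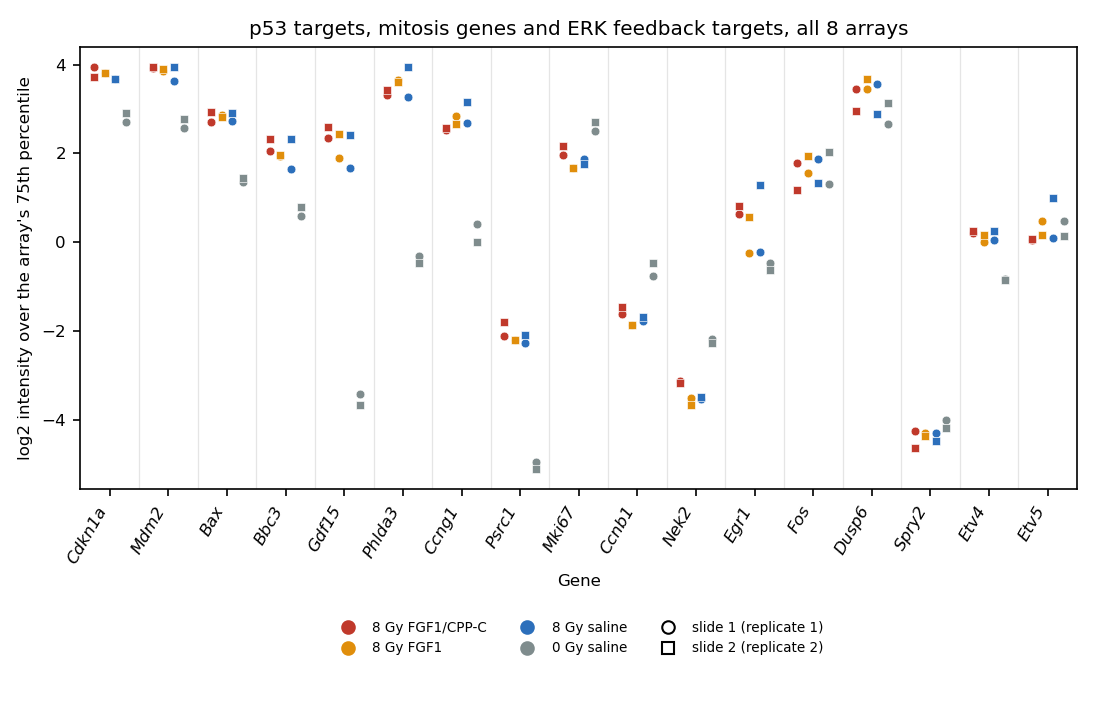
Level (log2 intensity over the array's 75th percentile) on each of the 8 arrays of p53 targets, mitosis genes and FGF and ERK response genes, with groups in colour. For Gdf15 the 0 Gy saline points lie at -3.41 and -3.66 while the 3 groups at 8 Gy lie between 1.68 and 2.60, and FGF1/CPP-C points lie among or near the saline points for most genes.

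Smooth muscle genes had negative differences, with 0 of 15 positive (56.6% of all genes) and 8 at an unadjusted p under 0.05 on the lower side (4.54%). Their median was -0.45 (-0.16 on slide 1, -0.76 on slide 2), and -0.22 without saline replicate 2. Actg2, an actin of visceral muscle, had 4.17 and 4.04 in FGF1/CPP-C, against 4.49 and 4.73 in saline (difference -0.50 ± 0.12, limma adjusted p = 0.313). Cnn1, calponin, had -0.81 ± 0.23 and Myh11, smooth muscle myosin, -0.48 ± 0.15. The groups did not overlap for the 3, as for 19.2% of all genes on the lower side, and none passed.

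Metabolic genes lay on both sides. Cyp4a10, a fatty acid hydroxylase under PPARA, had 0.33 and 0.44 in FGF1/CPP-C, 1.31 and 0.76 in FGF1 and 1.60 and 1.57 in saline (difference from saline -1.20 ± 0.18, limma adjusted p = 0.179). Gsta3, a glutathione transferase, had -0.19 and 0.48, against 1.73 and 2.02 in saline (difference -1.73 ± 0.27, limma adjusted p = 0.186). Both lay below the 6 other arrays. PPARA and fatty acid oxidation genes as a list had 16 of 29 positive and a median of 0.02, and NRF2 targets had 6 of 18 and -0.15. All 23 oxidative phosphorylation genes were positive, where 56.6% of all genes tested were, with a median of 0.19 (0.03 on slide 1, 0.33 on slide 2). An unadjusted p under 0.05 on the higher side was found for 1 of them, a share below the 7.38% of all genes. Over the alternative settings the median fell to as low as 0.05.

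Wnt pathway members lay on both sides. Rspo1, a secreted Wnt agonist, had -4.32 and -4.27 in FGF1/CPP-C, against -2.93 and -2.93 in saline (difference -1.36 ± 0.29, limma adjusted p = 0.282). Frat1, an inhibitor of GSK3, had 1.21 and 0.96, against 0.47 and 0.46 in saline (difference 0.62 ± 0.15). Frat2, its paralogue, had -0.55 and -0.35, against -1.06 and -1.09 in saline (difference 0.63 ± 0.14). In 0 Gy saline Frat1 had 1.13 and 1.32, and Frat2 had 0.08 and 0.40. The groups did not overlap for the 3, as for 25.2% of all genes on the higher side and 19.2% on the lower, and none passed.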

How the data were processed

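RNA from small intestine was labelled with Cy3 and hybridised to 8 one-colour Agilent arrays, per the labels' protocols. The authors' deposited intensity values are the spot signals of Feature Extraction 9.5.3.1, already background-subtracted, per the file headers. The authors' deposited series matrix, used as an alternative, holds the same linear intensity values wherever it gives one (100% within 0.1%) and leaves other spots blank, so it differs in the spots it covers and in the percentile taken over them. Each array's processed signal was divided by its 75th percentile, floored at -6.95 and put on the log2 scale. Control spots and outlier-marked spots were dropped. A probe was kept where some group had both of its arrays well above background (27538 of 39429 probes). The brightest probe stood for a gene, which left 21649 genes tested, 16901 of them with a RefSeq name. The array design gave the other names. Coordinates of probes are those of mm9 in the files.

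The 4 group means were fitted with limma 3.58.1 in R 4.3.3 to all 8 arrays, which leaves 4 residual degrees of freedom, and p-values were adjusted over all genes by Benjamini-Hochberg. Each comparison has 2 arrays against 2, for which an exact permutation test cannot go below 0.333, so the adjusted p rests on the spread shared across genes. The number of arrays limits the precision. For 156 tested genes an array was dropped. The code was tested on simulated data. Figures were drawn in matplotlib 3.10.9.

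The members and the 58 gene lists were chosen with earlier results of these data known. Genes were named if they passed, if they had the largest differences shared by both slide pairs (up to 15 per direction), if they had the smallest p at 2-fold or more, if they belonged to a set of p53, FGF and crypt genes, or if they had the smallest p in a list, and not every gene taken was described. Antrum and acinar genes were barred from the first groups, so Gkn3 enters through its list. Genes named outside the rule, such as those used to compare members of a pathway, were chosen after their values were seen. Alternatives covered normalisation, background, filters, probe choice, the samples fitted and each array left out. Keeping the spots with an outlier mark was added after seeing the data. Some genes that the rule takes are not reported here, though they count in their lists.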

Additional observations from a re-analysis of the deposited data

How the results depend on the processing

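By limma, 2 genes passed between FGF1/CPP-C and saline at 8 Gy, and 9 passed after quantile normalisation, 4 after normexp correction, 7 with the probes of a gene averaged, 5 with no dim filter and 1 (Gkn3) with probes well above background on all arrays. None passed in the series matrix (smallest adjusted p = 0.0922, with 1647 genes at an unadjusted p under 0.05), in a fit to the 4 arrays alone (0.0675, with 1505 such genes) or without the 3 arrays with antrum transcripts (0.154, with 1482 such genes; 1 residual degree of freedom, from the FGF1/CPP-C pair). Leaving out each array in turn, with the lone array assumed to vary like the other groups, 3 to 4 genes passed, the highest count being without 8 Gy saline replicate 1. Genes at least 2-fold apart in both pairs numbered 53 higher and 143 lower, against 23 and 69 with normexp, 26 and 94 in the series matrix and 26 and 85 with probes measured on all arrays. Kel, Slc13a3, Ces1b, Hoxc5 and Hoxc6 were nearest to 0 with normexp. Tff2 was not tested in the series matrix or under the all-array filter, and Gkn3 had an adjusted p of 0.0545 with no dim filter and of 0.0504 or 0.0547 without FGF1/CPP-C replicate 1 or 2. Replicate numbers match slides, but the replicate differences of FGF1/CPP-C and 8 Gy saline correlated at 0.09 across genes. Among all pairs of groups these correlations ran from -0.52 (8 Gy saline with 0 Gy saline) to 0.536 (FGF1 with 0 Gy saline). With signs that differ, the numbers were not taken to pair samples. With the replicate block 2 genes passed, Tff2 (adjusted p = 0.00149) and Gkn3 (0.024). Genes with small differences changed sign. Bax was at 0.00 with normexp and 0.09 without the 3 arrays, Etv4 at -0.01, Fgfr3 at -0.09 and Fgfr4 at -0.02 in the series matrix, and Phlda3 at 0.10, Fgfr2 at 0.02 and Fgfr3 at -0.20 without the 3 arrays. Leaving out each array in turn, Mdm2 spanned -0.01 to 0.30, Bax -0.11 to 0.10, Bbc3 -0.13 to 0.55, Phlda3 -0.57 to 0.10, Egr1 -0.56 to 0.96, Fos -0.42 to 0.18, Dusp6 -0.36 to 0.31, Spry2 -0.24 to 0.12, Etv4 -0.02 to 0.18, Fgfr2 -0.12 to 0.02, Fgfr3 -0.20 to 0.20 and Fgfr4 -0.09 to 0.24 (log2). The median of all genes spanned -0.056 to 0.104. For these changes the cause was not tested. With 2 arrays a group, precision is limited by their number. Values near the floor bound a difference from 1 side only, and only for the processed signals. Keeping spots with outlier marks was an alternative chosen after seeing the data, and 2 genes passed under it.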
